A study of Rattus norvegicus with 6 samples.

Results

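The genes described here encode the constitutive proteasome, the protein-degrading complex that every cell carries, as measured in the renal cortex of rats given phenolphthalein or its vehicle. Members were all genes whose symbol starts with Psma, Psmb, Psmc or Psmd followed by a digit, except the inducible Psmb8, Psmb9 and Psmb10 and except pseudogene names. The gene table held 41 such names. A probe was matched to 35 of them, and all 35 passed the filter on dim probes, among 12269 named genes tested. Psmb11, Psmb3l1, Psmb3l2, Psmb3l3, Psmb6l1 and Psmd11 had no matched probe and were not analysed here. The 35 genes comprised 30 core subunits, namely 7 alpha and 7 beta subunits of the 20S particle and 6 ATPase and 10 non-ATPase subunits of the 19S particle. The other 5 names were Psma8, Psmc3ip, Psmd5, Psmd9 and Psmd10.

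All 6 rats were male Sprague-Dawley (Crl:CD(SD)) animals bought at 5 weeks of age and kept on a basal diet. For 4 weeks, 3 of them received corn oil, the vehicle, and the other 3 received phenolphthalein, an indicator dye formerly taken as a laxative, at 1000 mg/kg/day. The labels name the 3 rats of a group as biological replicates, and each rat's total RNA was labelled with Cy3 and hybridised to 1 Agilent rat array. The comparison asks which transcripts differ in the cortex after phenolphthalein.

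Between 64.8% and 72.1% of the 61657 probes per array lay well above background, and no probe was saturated. The vehicle arrays shared 1 slide and scan day, phenolphthalein replicate 1 lay alone on another slide, and phenolphthalein replicates 2 and 3 shared the third, so a slide effect and an effect of treatment cannot be told apart. Markers of proximal tubule, the main cell type of the cortex, were tested in 6 of 6 cases, each with a vehicle mean above the array's 75th percentile (by 5.43 to 8.12 on the log2 scale). No item of 34417 passed the adjusted threshold of 0.05 in limma (0% higher and 0% lower), and the smallest adjusted p was 0.307. Without adjustment, 1346 items (3.91%) had higher and 1708 items (4.96%) had lower values at p under 0.05.

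Proteins tagged with ubiquitin are bound and unfolded by the 19S regulatory particle and cut into peptides within the 20S core particle. The core is a stack of rings in which the alpha subunits form the gate and the beta subunits line the chamber, with Psmb5, Psmb6 and Psmb7 carrying the peptide-cutting sites. In immune cells and under interferon, the inducible subunits Psmb8, Psmb9 and Psmb10 take the places of Psmb5, Psmb6 and Psmb7 to give the immunoproteasome. When proteasome activity falls short, the transcription factor Nfe2l1 is known to raise the genes of the constitutive subunits together. Proximal tubule cells take up and degrade large amounts of filtered protein, mainly in lysosomes, and use the proteasome for ubiquitin-tagged proteins.

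The constitutive subunits differed little between the groups. Values below are log2 levels relative to each array's 75th percentile, so that 0 is the 75th percentile, and a difference is the phenolphthalein mean minus the vehicle mean on that scale. Levels of different probes are not comparable with each other. Of the 30 core subunits, 15 were higher and 15 were lower in phenolphthalein, beside 44.4% higher and 55.6% lower over all named genes. Their median difference was 0.0016, against -0.02 over all named genes. The median size of the difference, regardless of sign, was 0.045 for the core subunits and 0.099 for all named genes. In 28 core subunits the difference was under 0.1 in size, which corresponds to 7.18%, and 50.3% of all named genes lay under that size. Psmd7 and Psmb3 were the exceptions.

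No member passed the adjusted threshold in limma, and the smallest adjusted p among them was 0.472, for Psmd7. At an unadjusted p under 0.05, 1 member of 35 was higher (3.91% of all items and 4.04% of all named genes) and 0 were lower (4.96% and 5.87%). The 3 arrays of each group did not overlap in 1 member that was higher, Psmd7 (6.28% of all named genes), and in 4 that were lower, Psmb4, Psmb5, Psmc2 and Psmd8 (10.1%). These shares lie near the background, and the p-values alone do not show that a gene was equal in both groups. Intervals were therefore also read. In 27 of the 35 members, and in 25 of the 30 core subunits, the 95% interval of the difference lay within 0.25 either way, a bound of 18.9% upward or 15.9% downward. Among all named genes, 24.9% had so narrow an interval.

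**Figure D1:**
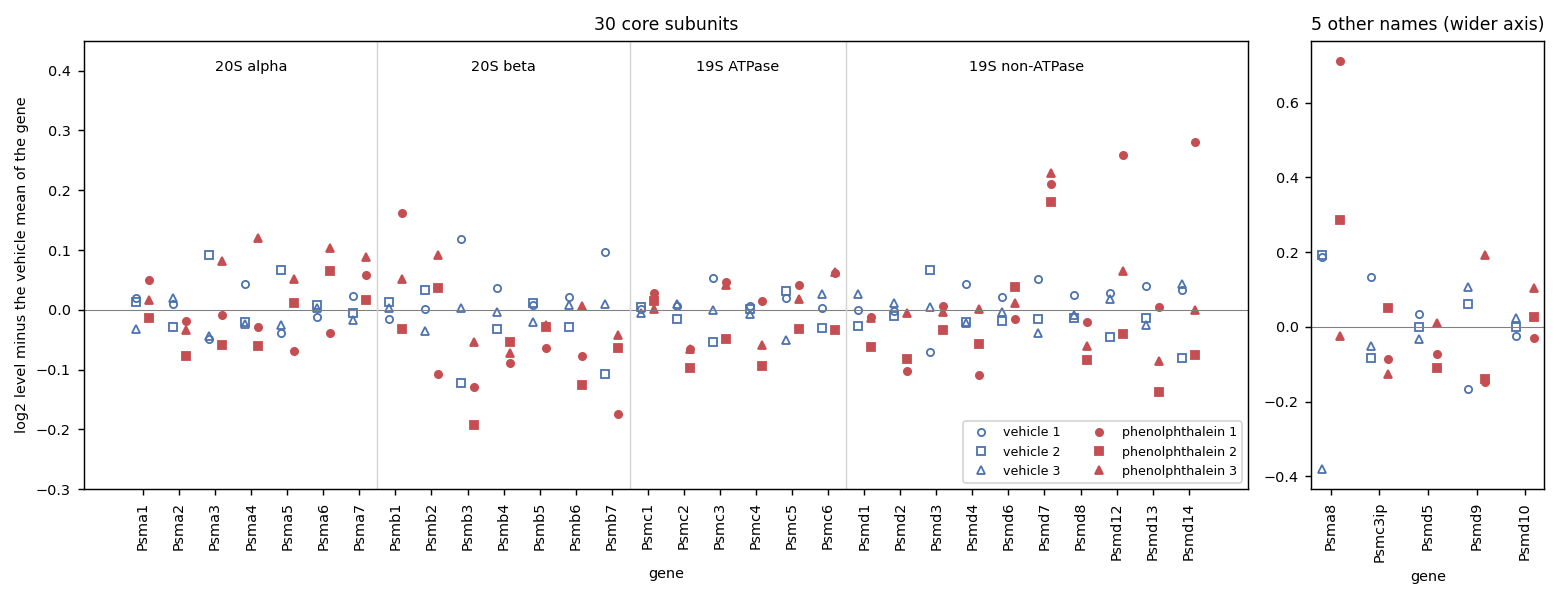
Log2 level on each array minus the vehicle mean of the same gene, for the 30 core subunits (left) and the 5 other names (right, on a wider axis). Blue open marks are the vehicle arrays and red filled marks the phenolphthalein arrays, with circles, squares and triangles for replicates 1, 2 and 3. Most genes scatter around 0 in both groups, Psmd7 has all red marks above its blue ones, and phenolphthalein 1 stands alone at the top for Psmd12 and Psmd14.

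The subunits also varied little from rat to rat. Over the 35 members the median SD between rats was 0.034 in vehicle and 0.056 in phenolphthalein, against 0.105 and 0.137 over all named genes. The range over all 6 arrays of a core subunit ran from 0.034 for Psmc1, an ATPase of the 19S base, to 0.361, with a median of 0.13 against 0.385 over all named genes. It was under 0.25 in 25 of the 30 core subunits and in 27.7% of all named genes. On 33 of the 35 members every array lay above its own 75th percentile, and the SD of bright probes is in general smaller than that of dim ones, so the named genes as a whole are not matched to the members in brightness.

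The catalytic subunits come first by role, and their promoters are printed because the constitutive and inducible partners are compared further on. The windows are RefSeq promoters of the GRCr8 assembly, from 250 bases before to 50 bases after the gene start, 5′ to 3′ on the gene's strand. Psmb5 lies at chr15:32047330-32047629 on the minus strand, Psmb6 at chr10:55737638-55737937 on the plus strand and Psmb7 at chr3:42827421-42827720 on the minus strand. Capitals mark matches, on either strand, to TGACNNNGC (the core of the antioxidant response element, which Nfe2l1 and Nfe2l2 bind with small Maf proteins), to CCAAT (the box bound by NF-Y) and to the core of the interferon-stimulated response element, bound by IRF factors (GAAA, NN, GAAA without gaps).
Psmb5: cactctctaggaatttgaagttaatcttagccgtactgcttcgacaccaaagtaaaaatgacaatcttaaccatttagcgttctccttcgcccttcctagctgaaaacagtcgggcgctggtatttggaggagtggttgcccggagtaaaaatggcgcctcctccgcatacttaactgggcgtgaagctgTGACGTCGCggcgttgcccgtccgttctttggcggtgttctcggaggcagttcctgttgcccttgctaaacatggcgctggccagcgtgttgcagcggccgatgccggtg
Psmb6: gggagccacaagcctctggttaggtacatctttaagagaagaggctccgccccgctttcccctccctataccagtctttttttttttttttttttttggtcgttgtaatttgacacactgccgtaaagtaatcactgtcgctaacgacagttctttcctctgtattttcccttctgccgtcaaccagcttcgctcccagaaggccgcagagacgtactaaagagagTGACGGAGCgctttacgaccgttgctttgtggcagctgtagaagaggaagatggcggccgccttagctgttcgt
Psmb7: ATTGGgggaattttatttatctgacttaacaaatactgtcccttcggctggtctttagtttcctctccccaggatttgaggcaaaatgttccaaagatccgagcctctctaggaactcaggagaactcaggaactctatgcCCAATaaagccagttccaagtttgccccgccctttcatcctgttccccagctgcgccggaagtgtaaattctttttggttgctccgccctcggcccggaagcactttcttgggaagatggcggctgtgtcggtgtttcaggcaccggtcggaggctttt
A TGACNNNGC match stands in Psmb5 at position -60 and in Psmb6 at position -24, counted from the gene start, and none stands in the Psmb7 window, which holds CCAAT matches. Over the 26 core subunits with a RefSeq promoter of this length, 6 held TGACNNNGC (Psma3, Psmb2, Psmb5, Psmb6, Psmd1 and Psmd3), against 12.1% of all 33469 promoters. CCAAT stood in 14 of the 26 (37.5% of all), GGGCGG, the GC box bound by Sp1, in 19 of the 26 (33.1% of all, not capitalised above), and the interferon element in 3 of the 26 (3.92% of all). The motifs do not contain each other, matches are letters in a window, and binding was not measured.

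Psmb5, the chymotrypsin-like subunit, had log2 levels of 4.53, 4.54 and 4.50 in the vehicle rats and 4.46, 4.50 and 4.50 in the phenolphthalein rats. The groups did not overlap, but only narrowly, and the difference was -0.039 (SE 0.045, 95% interval -0.145 to 0.067, limma's adjusted p = 0.824). Psmb6, the caspase-like subunit, stood at 2.93, 2.88 and 2.91 in vehicle and at 2.83, 2.78 and 2.91 in phenolphthalein. Phenolphthalein replicate 3 lay within the vehicle range while the other two lay below it, and the difference was -0.066 (SE 0.058, interval -0.205 to 0.072, adjusted p = 0.766). For Psmb7, the trypsin-like subunit, the vehicle rats gave 3.23, 3.02 and 3.14 and the phenolphthalein rats 2.96, 3.07 and 3.09. The groups overlapped, and the difference was -0.093 (SE 0.073, interval -0.265 to 0.08, adjusted p = 0.737). It was -0.045 without vehicle replicate 1, -0.052 without phenolphthalein replicate 1 and -0.146 without vehicle replicate 2. All 3 catalytic subunits were thus lower in value, each by less than its interval can separate from 0.

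The non-catalytic beta subunits Psmb1 to Psmb4 build the same rings. Psmb3 had the most negative difference of all members, with levels of 4.99, 4.75 and 4.87 in vehicle and 4.74, 4.68 and 4.82 in phenolphthalein. Its groups overlapped, and the difference was -0.125 (SE 0.074, interval -0.3 to 0.05, adjusted p = 0.663). Without vehicle replicate 1, the highest of the 6 arrays, the difference was -0.066, and without vehicle replicate 2 it was -0.19. Psmb4 was at 5.11, 5.04 and 5.07 in vehicle and at 4.98, 5.02 and 4.996 in phenolphthalein, a difference of -0.072 with no overlap between the groups. On its dimmer probe the groups overlapped, at a difference of -0.034. Psmb1 differed by 0.06 and Psmb2 by 0.0068. Over the 7 beta subunits, 2 were higher and 5 were lower, with a median difference of -0.066.

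The alpha subunits gate the chamber and bind the regulatory particles. Of the 7, 5 were higher and 2 were lower, with a median difference of 0.011 and a range from -0.043 to 0.054, and the groups overlapped in each of the 7. Psma7 had the most positive value, at 5.10, 5.07 and 5.06 in vehicle and 5.13, 5.09 and 5.16 in phenolphthalein, a difference of 0.054 (SE 0.045, adjusted p = 0.753). Psma2 was the most negative, at 3.28, 3.24 and 3.29 against 3.25, 3.19 and 3.24. The remaining differences were 0.017 for Psma1, 0.0052 for Psma3, 0.011 for Psma4, -0.0021 for Psma5 and 0.044 for Psma6.

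The ATPases Psmc1 to Psmc6 form the ring of the 19S base that unfolds substrates and threads them into the core. Among them 4 were higher and 2 were lower, with a median difference of 0.011. Psmc2 had the largest difference of this ring, at 5.16, 5.14 and 5.16 in vehicle and 5.09, 5.05 and 5.09 in phenolphthalein. Its groups did not overlap, and the difference was -0.076 (SE 0.042, interval -0.177 to 0.024, adjusted p = 0.645). Psmc1 was among the steadiest transcripts, at 4.63, 4.64 and 4.63 against 4.66, 4.65 and 4.63, a difference of 0.015. Psmc3, Psmc4, Psmc5 and Psmc6 differed by 0.012, -0.046, 0.0093 and 0.031.

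The non-ATPase subunits of the 19S particle scaffold the base, receive ubiquitin chains or form the lid, in which Psmd14 removes the chains. Of the 10 tested, 4 were higher and 6 were lower, with a median difference of -0.02. Psmd7, the partner with which Psmd14 forms a dimer, had the only member value at an unadjusted p under 0.05. Its brightest probe read 1.86, 1.79 and 1.77 in vehicle and 2.02, 1.99 and 2.04 in phenolphthalein. Every phenolphthalein rat lay above every vehicle rat, with a difference of 0.21 (SE 0.058, interval 0.069 to 0.344, limma's unadjusted p = 0.00941 and adjusted p = 0.472). Psmd14 itself stood at 1.15, 1.04 and 1.16 in vehicle and 1.40, 1.04 and 1.12 in phenolphthalein, so that replicate 1 alone was high. The difference was 0.069 (SE 0.105), and it was -0.037 without phenolphthalein replicate 1 and 0.141 without phenolphthalein replicate 2.

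Psmd12, a lid scaffold subunit, was also highest in phenolphthalein replicate 1, with 4.19, 4.12 and 4.18 in vehicle and 4.42, 4.12 and 4.23 in phenolphthalein. Replicate 3 lay above every vehicle rat too, and replicate 2 lay within the vehicle range. The difference was 0.094 (SE 0.082, interval -0.1 to 0.289, adjusted p = 0.763) with all rats and 0.012 without phenolphthalein replicate 1, the array on a slide of its own. Without phenolphthalein replicate 2 it was 0.162. Psmd8, another lid subunit, read 3.07, 3.03 and 3.03 in vehicle and 3.02, 2.96 and 2.98 in phenolphthalein, and its groups did not overlap at a difference of -0.055. The base scaffolds Psmd1 and Psmd2 differed by -0.029 and -0.063, and the ubiquitin receptor Psmd4 by -0.055. In the lid, Psmd3, Psmd6 and Psmd13 differed by -0.011, 0.011 and -0.073. Over the 9 base subunits tested (the ATPases with Psmd1, Psmd2 and Psmd4) 4 were higher and 5 lower, and over the 7 lid subunits 4 were higher and 3 lower.

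**Figure D2:**
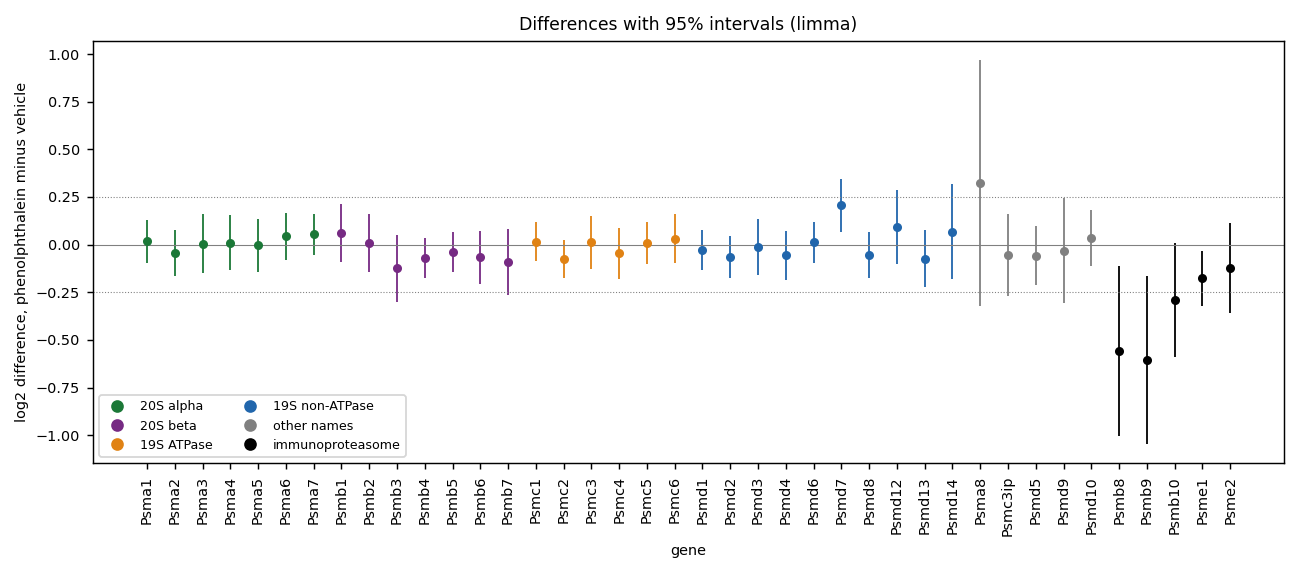
Log2 difference, phenolphthalein minus vehicle, with its 95% interval from limma, for the 35 genes by subunit class and for the 5 immunoproteasome genes at the right. Dotted lines mark 0.25 either way. Of the members, 27 have an interval within the lines, Psma8 has the widest, and the interval of Psmd7 alone among the 35 excludes 0.

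The 5 other names fit the naming rule without being constitutive subunits of the mature particle. Psma8 is an alpha subunit of the testis proteasome. It had 4 probes on the array, of which 1 was bright enough to be tested, and that probe read -4.93, -4.93 and -5.50 in vehicle and -4.41, -4.84 and -5.15 in phenolphthalein, far under the 75th percentile. The groups overlapped, and the difference of 0.32 (SE 0.272, interval -0.319 to 0.969, adjusted p = 0.754) has the widest interval of the 35. It was 0.13 without phenolphthalein replicate 1, 0.14 without vehicle replicate 3, 0.50 without phenolphthalein replicate 3 and 0.14 with the normexp background correction. Psmc3ip, which acts in meiotic recombination and is no proteasome subunit, differed by -0.054. The assembly chaperones of the 19S base, Psmd5, Psmd9 and Psmd10, differed by -0.058, -0.031 and 0.033.

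Several subunits were measured by more than 1 probe, and the probes did not always give the same answer. Of the 35 members, 18 had more than 1 tested probe. The probes of a gene differed in sign in 8 of the 18, against 38.2% of the 6367 named genes with several tested probes. The spread between the probes' differences was under 0.11 in 15 of the 18, and its median was 0.046, against 0.111 over all such named genes. It exceeded 0.2 in Psma4, Psmc6 and Psmd7. Over the 58 tested member probes, 4 were higher at an unadjusted p under 0.05 (3.92% of all tested probes of named genes) and 0 were lower (5.28%), and all 4 belong to those 3 genes.

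In a fit of every probe on its own, the brightest Psmd7 probe differed by 0.21 and the dimmest of its 3 probes by 0.22 (limma's unadjusted p = 0.0367), with levels of -0.55, -0.75 and -0.61 in vehicle and -0.41, -0.49 and -0.34 in phenolphthalein. The remaining Psmd7 probe read 1.97, 1.84 and 1.86 against 1.81, 1.93 and 1.95, a difference of 0.0064 (unadjusted p = 0.929). The mean level of the brightest probe exceeded that of this probe by only 0.016. Where the brightest probe was chosen by the vehicle rats alone, that probe stood for the gene, and its difference of 0.0064 replaced 0.21. The value for Psmd7 therefore rests on which of 2 nearly equally bright probes is read.

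For Psma4 the brightest probe differed by 0.011, while its dimmer probe read 3.65, 3.50 and 3.57 in vehicle and 3.96, 3.65 and 3.89 in phenolphthalein, a difference of 0.26 (unadjusted p = 0.026). Phenolphthalein replicate 2 lay within the vehicle range there. For Psmc6 the brighter probes differed by 0.031 and -0.00092, and the dimmest by 0.30 (unadjusted p = 0.0117), at 0.89, 0.86 and 0.87 in vehicle and 1.13, 1.35 and 1.05 in phenolphthalein with no overlap. The 4 probes at an unadjusted p under 0.05 had adjusted p-values between 0.461 and 0.542. Rat proteasome genes also have close copies, since the gene table lists 35 pseudogene names with -ps and 15 of the 35 members have at least 1. Whether a probe also reads such a copy, or another transcript of its gene, was not tested.

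**Figure D3:**
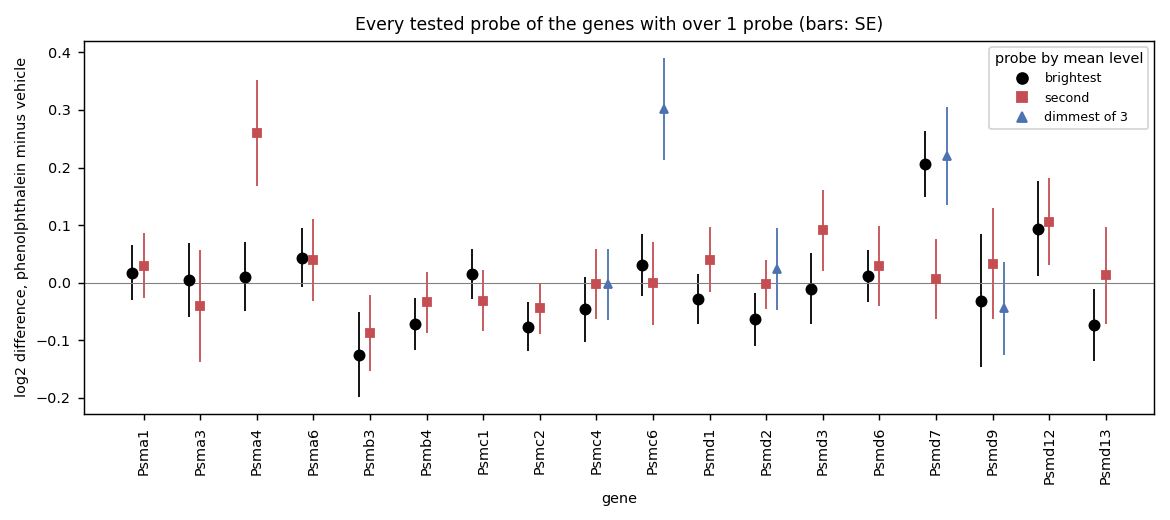
Log2 difference, phenolphthalein minus vehicle, with its SE, for every tested probe of the 18 genes with more than 1 tested probe, in order of brightness (black circle brightest, red square next, blue triangle dimmest of 3). Probes of a gene mostly lie together near 0, and they part in Psma4, Psmc6 and Psmd7.

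The catalytic subunits were also set against their inducible counterparts. Values of the inducible genes were already known when these pairs were chosen. Their RefSeq windows on GRCr8 are chr20:4656982-4657281 on the minus strand for Psmb8, chr20:4668750-4669049 on the plus strand for Psmb9 and chr19:50743243-50743542 on the minus strand for Psmb10, printed with the same capitals for comparison with the constitutive partners.
Psmb8: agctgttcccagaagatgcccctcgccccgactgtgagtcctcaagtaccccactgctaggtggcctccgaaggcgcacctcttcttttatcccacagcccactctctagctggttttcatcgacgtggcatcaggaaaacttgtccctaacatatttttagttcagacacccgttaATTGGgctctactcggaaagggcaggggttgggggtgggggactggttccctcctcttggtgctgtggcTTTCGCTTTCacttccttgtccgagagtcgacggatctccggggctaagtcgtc
Psmb9: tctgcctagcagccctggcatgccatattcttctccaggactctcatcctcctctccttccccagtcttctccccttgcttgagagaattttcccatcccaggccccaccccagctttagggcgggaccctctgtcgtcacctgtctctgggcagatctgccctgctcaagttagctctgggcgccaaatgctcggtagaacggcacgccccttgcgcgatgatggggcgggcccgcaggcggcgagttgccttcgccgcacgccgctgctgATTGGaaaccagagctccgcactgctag
Psmb10: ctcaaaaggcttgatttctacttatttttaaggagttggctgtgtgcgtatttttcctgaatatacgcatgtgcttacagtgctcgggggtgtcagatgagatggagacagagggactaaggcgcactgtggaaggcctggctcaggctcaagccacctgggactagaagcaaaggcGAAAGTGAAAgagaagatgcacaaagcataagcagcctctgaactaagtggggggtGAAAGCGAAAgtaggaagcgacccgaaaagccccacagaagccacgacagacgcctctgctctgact
None of these 3 windows holds TGACNNNGC. Matches to the interferon element stand in Psmb8 and Psmb10, and CCAAT matches in Psmb8 and Psmb9, with GGGCGG in Psmb9 only. Psmb9 and Psmb10 replace Psmb6 and Psmb7, and Psmb8 replaces Psmb5.

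Each inducible gene had 1 probe. Psmb8 read 1.01, 1.63 and 1.18 in vehicle and 0.46, 0.97 and 0.71 in phenolphthalein, with no overlap and a difference of -0.56 (SE 0.188, limma's unadjusted p = 0.0215, adjusted p = 0.515). Psmb9 read 1.83, 2.09 and 1.70 against 0.88, 1.57 and 1.35, again with no overlap and a difference of -0.61 (SE 0.186, unadjusted p = 0.014, adjusted p = 0.497). Psmb10 stood at 2.80, 2.94 and 2.82 in vehicle and at 2.31, 2.81 and 2.58 in phenolphthalein, where replicate 2 lay within the vehicle range. Its difference was -0.29 (SE 0.125, adjusted p = 0.573), -0.16 without phenolphthalein replicate 1 and -0.41 without phenolphthalein replicate 2. The immunoproteasome list, which adds the interferon-induced activator genes Psme1 and Psme2, had 5 of 5 lower in value with a median of -0.29, and none passed the adjusted threshold.

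Markers of immune cells lay lower in the same rats. In the macrophage list 4 of 5 markers were tested (Cd163 was not), all 4 were lower in value (55.6% of all named genes), and 3 were lower at an unadjusted p under 0.05 (5.87%). Their summed level, in multiples of the array's 75th percentile, ran from 26.3 to 29.7 in vehicle and from 17.6 to 22.3 in phenolphthalein. The 4 of 4 T cell markers tested were lower in value too. Cd3d had a vehicle mean of 0.15, while Cd3e, Cd8a and Cd2 lay far under the 75th percentile, at -4.06, -3.45 and -4.30. Their summed level, 1.14 to 1.59 in vehicle and 0.872 to 1.07 in phenolphthalein, is therefore mostly that of Cd3d. The groups did not overlap for Cd3d and Cd8a, but they overlapped for Cd3e and Cd2. The part of these cells in the values of the inducible subunits was not tested. In whole cortex, fewer cells of a type and less RNA per cell cannot be told apart. Lower values were not confined to immune markers. Collecting duct markers were lower in 3 of 3 tested, proximal tubule in 5 of 6 and erythroid in 3 of 3 (55.6% of all named genes). The median differences of these lists were -0.17, -0.11 and -0.15, against -0.49 for the macrophage and -0.61 for the T cell list. Aqp2 of the collecting duct differed by -0.58. Slc12a3 of the distal convoluted tubule differed by -0.39. Endothelium and skeletal muscle markers were higher in 3 of 3 each, liver in 6 of 6 and podocyte in 2 of 3 (44.4% of all named genes). The endothelium median was only 0.029, and the skeletal muscle markers lay far under the 75th percentile (vehicle means -5.9 to -5.37). The median deviation of the liver markers from the vehicle mean was -0.40, 2.2 and 0.033 in phenolphthalein replicates 1, 2 and 3. In the vehicle rats it ran from -0.99 to 0.98. Umod of the thick ascending limb was higher too.

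Within each array the level of the constitutive gene was then taken relative to its partner, so that array scaling cancels. The absolute size of such a log2 ratio has no meaning between probes, and only its change between groups was read. For Psmb5 minus Psmb8 the vehicle rats gave 3.52, 2.91 and 3.33 and the phenolphthalein rats 4.001, 3.52 and 3.79, a change of 0.52 (SE 0.228). Psmb6 minus Psmb9 gave 1.1, 0.79 and 1.21 against 1.95, 1.21 and 1.56, a change of 0.54 (SE 0.248). That change was 0.35 without phenolphthalein replicate 1 and 0.72 without phenolphthalein replicate 2. Psmb7 minus Psmb10 gave 0.43, 0.083 and 0.32 against 0.65, 0.26 and 0.51, a change of 0.20 (SE 0.153), which was 0.10 without vehicle replicate 2, 0.11 without phenolphthalein replicate 1 and 0.30 without phenolphthalein replicate 2. The 2-sided exact permutation p was 0.1 for Psmb5 with Psmb8, 0.2 for Psmb6 with Psmb9 and 0.3 for Psmb7 with Psmb10, and 0.3 for each after Benjamini-Hochberg adjustment over the 3 pairs. With 3 rats against 3 the smallest p is 0.1, so the design cannot reach 0.05. The changes came from lower values of the inducible genes, since the constitutive genes were lower in value as well and by less.

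**Figure D4:**
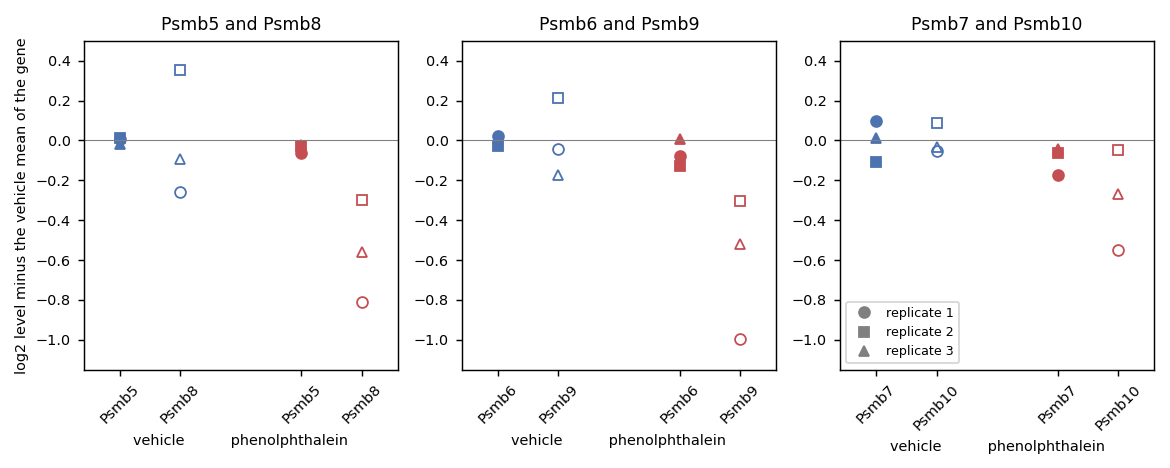
Log2 level minus the vehicle mean of the same gene on each array, for the 3 pairs of constitutive (filled) and inducible (open) catalytic subunits in vehicle (blue) and phenolphthalein (red) rats, with a mark shape for each replicate. The constitutive genes stay within 0.25 of their vehicle mean on every array, and the inducible genes in phenolphthalein reach below that, with replicate 1 lowest in each pair.

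The other genes of the pathway were taken from lists of the partners, assembly factors and regulators of the proteasome. Those given with a value of their own are mostly among the 2 genes of their list with the smallest p, so they are not typical of it. None passed the adjusted threshold. The activators outside the immunoproteasome and the inhibitor, Psme3, Psme4 and Psmf1, were 3 of 3 lower in value with a median of -0.097, and Psmf1, the inhibitor, differed by -0.14. Of 9 assembly chaperones 6 were tested, with 2 higher and 4 lower. Pomp, the chaperone that completes the core particle, was the one with no overlap between groups, at 5.91, 5.91 and 5.90 in vehicle and 5.78, 5.84 and 5.86 in phenolphthalein, a difference of -0.078, and Psmg4, an alpha-ring chaperone, differed by -0.092.

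Among 19S partners outside the naming rule, 3 of 6 were tested and all 3 were lower in value. The ubiquitin receptor Adrm1 differed by -0.21 (SE 0.09, adjusted p = 0.563) with no overlap between the groups, and the deubiquitinase Usp14 by -0.069. The regulators of subunit transcription gave 3 higher and 2 lower of 5 tested of 7. Nfe2l1 and Nfe2l2 differed by 0.048 (SE 0.1) and 0.048 (SE 0.104), Ngly1, which removes sugars from Nfe2l1, by 0.027, and Sel1l, a part of the machinery that exports proteins from the endoplasmic reticulum, by -0.091. An array reads transcript levels, and Nfe2l1 is known to be controlled largely as a protein, which was not measured.

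Ubiquitin genes and ubiquitin-activating enzymes were 6 of 6 lower in value, with a median of -0.079. Uba1, the main activating enzyme, stood at 5.10, 5.12 and 5.14 in vehicle and 4.95, 5.01 and 4.94 in phenolphthalein, with no overlap and a difference of -0.15 (SE 0.046, limma's unadjusted p = 0.0133, adjusted p = 0.497). Of 10 shuttle and segregase genes, which carry tagged proteins to the proteasome, 9 were tested, 5 higher and 4 lower, with a median of 0.0082. Ufd1, a cofactor of the segregase, differed by 0.052.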

How the data were processed

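Total RNA of the renal cortex was measured on 6 1-colour Agilent arrays, 1 per rat. Intensity in the deposited scanner files was background-subtracted and detrended by Agilent Feature Extraction 10.7.1.1, per the file headers, and the submitters' processing notes name version 10.7. The deposited value table holds a ratio on a linear scale. Each of its columns equalled the intensity divided by the array's 75th percentile for another replicate of the same group (SD of the log2 difference 0.000354 to 0.000405, over log2 intensities above 5), so which rat within a group carries which replicate number is open, while the groups are not in doubt. Replicate names here are those of the scanner files. The table served as an alternative only, and its column medians lay between 0.102 and 0.106. None of its columns was left out (0).

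The value analysed is log2 intensity minus log2 of the array's 75th percentile over non-control probes. Probes well above background on at least 3 arrays were kept. Outlier-flagged spots (2 to 14 per array) were set to missing. Probes were named by RefSeq accession through a table of the GRCr8 assembly (27460 with 1 symbol, 34197 with none), and a gene was represented by its brightest probe by the mean of the 6 arrays. The array's own annotation is on rn4, so coordinates are given only for RefSeq promoter windows.

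The test was limma 3.58.1 under R 4.3.3 (lmFit, eBayes with an intensity trend, 2-sided), with Benjamini-Hochberg adjustment over 34417 items. The script was tested on simulated data. Exact permutation tests used scipy 1.17.1. Members and lists were chosen with earlier results of these data known. Every member is named, and of the pathway lists mainly genes among the 2 with the smallest p. Values per array are given for the catalytic subunits and their inducible partners, for members at an unadjusted p under 0.05, and for the 3 largest differences in each direction, and further genes shown per array were chosen after their values were seen. Alternatives covered the background correction, scaling, probe rule, filter, variance model, slide, replicate number, outlier spots, value table and each rat left out. The normexp alternative used the median spot signal, because the scanner files hold no mean spot signal.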

Additional observations from a re-analysis of the deposited data

How the results depend on the processing

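Under 18 alternatives none of the 50 genes whose values were refitted, members and pathway genes, passed the adjusted threshold (0 of 900 values). The number of items called stayed at 0 with all rats and ranged from 0 to 1 higher and from 0 to 1 lower when 1 rat was left out. The median difference of the 35 members lay between -0.011 (normexp) and 0.0065 (quantile) under 12 settings with all rats, and between -0.033 (without phenolphthalein replicate 3) and 0.00072 when 1 rat was left out. The count of members higher at an unadjusted p under 0.05 was 0 with the median over probes and 0 with the brightest probe chosen by the vehicle mean, which was added after the data were seen, because both change the Psmd7 probe. Leaving out a rat gave 1 to 1 higher and 0 to 1 lower, the latter being Psmb3 without vehicle replicate 2. The change of each catalytic subunit against its inducible partner stayed above 0 in 54 of 54 refits. Only normexp, quantile scaling and leaving out a rat changed its value. Array scaling cancels in this ratio and each of these genes had 1 probe, so the other settings returned the main value and do not bear on it.

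Differences near 0 changed sign under some settings. With normexp these were Psma1 -0.0097, Psma6 -0.011, Psmc5 -0.041, Psme3 0.0023 and Usp14 0.021. With quantile scaling they were Psma5 0.0065, Psmd1 0.0041 and Psmd3 0.00092, and with median centring Psma5 0.0051. With the median over probes they were Psma3 -0.018, Psmc1 -0.0084, Psmc6 -0.00092, Psmd1 0.0056, Psmd3 0.0401, Ngly1 -0.033 and Usp14 0.0404. With 1 rat left out, ranges crossed 0 for Psma3 (-0.033 to 0.051), Psma4 (-0.044 to 0.046), Psma5 (-0.029 to 0.032), Psmb2 (-0.035 to 0.064), Psmc3 (-0.014 to 0.043), Psmc5 (-0.016 to 0.0296), Psmd3 (-0.046 to 0.023), Psmd6 (-0.0016 to 0.025), Psmd9 (-0.144 to 0.027), Psmd10 (-0.0009997 to 0.065), Psmd14 (-0.037 to 0.141), Psmc3ip (-0.106 to 0.013), Psme3 (-0.055 to 0.0025) and Psmg4 (-0.172 to 0.018). The cause of these sign changes was not tested. Quantile scaling also moved differences that kept their sign. Pomp went from -0.078 to -0.036, Psmb4 from -0.072 to -0.042 and Psmc2 from -0.076 to -0.048. Psma7 went from 0.054 to 0.083.

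With the replicate number of the labels as a block, 0 items were called and the count of members at an unadjusted p under 0.05 stayed at 1 higher and 0 lower. Same-numbered rats did not deviate together in expression (correlations -0.0061, -0.015 and 0.025). That does not settle whether the numbers pair the rats by design. A random slide block had a consensus correlation of 0.095. No slide held both groups, so this value cannot measure a slide effect between the groups. The number of rats, 3 per group, limits what these arrays can resolve.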

Other observations

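Over the 30 core subunits, phenolphthalein replicate 2 was the lowest of the 6 arrays in 12 genes and phenolphthalein replicate 1 in 8, while phenolphthalein replicate 3 was the lowest in 0. Vehicle replicate 1 was the highest in 8 genes and phenolphthalein replicate 1 in 7. In 19 of the 30 the difference between phenolphthalein replicate 1 and the mean of the other two phenolphthalein rats was larger in size than the difference between the groups. A contrast of 1 rat against 2 varies more by itself than one of 3 against 3. The same counts over all named genes are not given here, so these counts show no trait of the subunits or of a replicate.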
